A study of Mus musculus with 48 samples.

Results

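The core genes of the circadian clock were followed in mouse kidney RNA across genotype, phosphate diet and sex. The members were the 10 genes Arntl, Clock, Per1, Per2, Per3, Nr1d1, Nr1d2, Dbp, Tef and Hlf, taken as every probe set that the platform annotation assigns to these symbols alone. They are 10 of the 18193 named genes on both chips and hold 26 of 45137 probe sets, with 19 from the 430A array and 7 from its companion 430B. Of these 26, 23 passed the filter on dim probe sets (in 3 or more of the 24 pools, a signal over the median of that array). The remaining 3, which never exceeded the array's median, were not tested: Per2 1417603_at with signals of 15.3 to 158.0, Per3 1421086_at with 4.9 to 109.5 and Per3 1460662_at with 41.1 to 153.5.

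Whole kidneys of 72 mice were combined into 24 RNA pools of 3 mice, and each pool was hybridised to both Affymetrix chips. The 8 groups of 3 pools cross genotype, diet and sex. Mutant males were Hyp/Y and mutant females Hyp/+, so that the females kept a normal copy of Phex, the X-linked gene that Hyp disrupts and that is known for its role in renal phosphate handling. The comparison mice were normal littermates. From 10 weeks of age all mice drank deionized water and ate, for 3 days, either a control diet (Teklad TD 86129) or a low phosphorus diet (TD 86128), called low phosphate here. A single label names C57BL/6J mice. Each group has 1 pool numbered series 1, 1 numbered series 2 and 1 numbered series 3 in the titles, and the labels used here give neither the meaning of that number nor the hour at which kidneys were taken. Because mice were pooled, p-values measure the spread between pools, and the spread between single mice is not seen.

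The circadian clock is a feedback loop of transcription that runs with a period of about a day in most cells. The proteins of Arntl (BMAL1) and Clock bind E-box elements together and switch on the Per and Nr1d genes and Dbp. PER proteins then inhibit that pair, and the REV-ERB nuclear receptors made from Nr1d1 and Nr1d2 repress Arntl through RORE elements. DBP, TEF and HLF are bZIP factors that carry the rhythm to output genes through D-box elements. In kidney, clock genes cycle strongly and are known to influence transport along the nephron, with Arntl peaking at about the opposite time of day to Dbp and Nr1d1.

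The promoter stretches below show, for 4 members, where the elements of this loop lie near transcription starts. RefSeq windows of 250 bases before to 50 bases after a start (build GRCm38.p6) matched 9 of the 10 members, all but Per2, with 14 windows between them. Capitals mark the element, and positions are counted from the start, with negative numbers upstream. All 4 are written in the direction of transcription, from 5′ to 3′. The E-box was searched as CACGTG, the D-box as TTATGTAA or TTACGTAA and the RORE as TAGGTCA or TGGGTCA, each on both strands. No searched element overlaps another in the stretches shown.
Per1 E-box at -166 (chr11:69098699-69098948, plus strand): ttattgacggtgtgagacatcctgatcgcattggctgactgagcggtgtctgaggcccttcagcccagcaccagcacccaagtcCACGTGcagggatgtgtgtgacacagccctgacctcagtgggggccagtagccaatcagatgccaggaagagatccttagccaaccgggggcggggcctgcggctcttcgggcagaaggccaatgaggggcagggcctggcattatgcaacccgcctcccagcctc
Tef E-box at -127 (chr15:81802423-81802672, plus strand): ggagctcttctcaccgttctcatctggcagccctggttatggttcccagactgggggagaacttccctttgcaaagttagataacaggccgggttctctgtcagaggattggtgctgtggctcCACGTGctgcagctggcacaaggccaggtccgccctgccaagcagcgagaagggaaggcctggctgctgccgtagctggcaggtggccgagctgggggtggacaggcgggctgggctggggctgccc
Per3 D-boxes at -205 and -158 (chr4:151044666-151044915, minus strand): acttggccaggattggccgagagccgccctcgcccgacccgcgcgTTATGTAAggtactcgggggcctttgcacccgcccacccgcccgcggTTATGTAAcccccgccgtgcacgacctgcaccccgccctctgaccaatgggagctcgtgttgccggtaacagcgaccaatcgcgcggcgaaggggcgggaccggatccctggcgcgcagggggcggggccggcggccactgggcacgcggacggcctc
Arntl RORE at 31 (chr7:113207531-113207557, plus strand): aggcagaaagTAGGTCAgggacggagg

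The E-box stood in 1 of 2 Per1 windows, in both Tef windows (the other at -138) and in 7.15% of all 32851 RefSeq windows. The D-box stood in 1.06% of all windows and among the members in that of Per3, which held 2 copies. The RORE stood in 6.45% of all windows and, among the members, in 1 of 2 windows of Arntl. A cAMP response element, searched as TGACGTCA on both strands, lay at -9 in the Hlf window (1.79% of all windows). The variant E-box CACGTT, searched on both strands, lay at -28 in the Nr1d1 window (4.68% of all windows). None of these letters stood in the windows of Clock, Dbp or Nr1d2. A match describes the letters of a window and does not show a bound site.

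Kidney identity was checked with markers. Of 8 kidney markers, 7 had a probe set, all 7 were kept, and their summed signal was 85911 to 112678 over the 24 pools, with Kap, Umod, Slc34a1 and Lrp2 the brightest. Array medians were 164.6 to 211.2 on the 430A chip and 50.9 to 68.3 on the 430B chip, and by series their medians were 190.6, 188.2 and 172.2 on the 430A chip. The signal ratio of the 3′ to the 5′ control probe sets for Gapdh on the 430A chip had medians of 0.71, 0.73 and 0.76 in series 1, 2 and 3, and that for beta-actin 1.35, 1.4 and 1.3. All values below are signals on the deposited linear scale or differences of log2 signal, ± SE unless an SD is named. Adjusted p-values are limma's, by Benjamini-Hochberg over all 28026 kept probe sets, with a threshold of 0.05. Levels are compared within a probe set only.

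Dbp, Nr1d2, Per2, Per3 and Tef were low, and Arntl high, in most pools numbered series 3. Dbp 1438211_s_at (an identifier whose ending marks probes that can match more than 1 transcript) spanned 72.3 to 2015.0 over the 24 pools, a 27.9-fold range. In series 1 its lowest, median and highest signals were 671.5, 1032.6 and 2015.0. In series 2 they were 449.5, 989.8 and 1381.9. In series 3 they were 72.3, 267.6 and 1048.0, and 6 of the 8 pools lay below every pool of series 1.

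The pools of series 3 did not move together. Their 4 male pools were all low, at 183.0, 197.3, 235.4 and 299.9. Among the 4 female pools, the Hyp control diet pool had the lowest signal of all 24 at 72.3, the normal low phosphate pool had 427.2, and the Hyp low phosphate and normal control pools had 937.3 and 1048.0, inside the range of series 1. The SD of log2 signal of Dbp was 0.521 in series 1, 0.687 in series 2 and 1.277 in series 3. The second Dbp probe set, 1418174_at, followed the first (r = 0.977 over 24 pools) with medians of 845.4, 766.2 and 253.1.

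**Figure D1:**
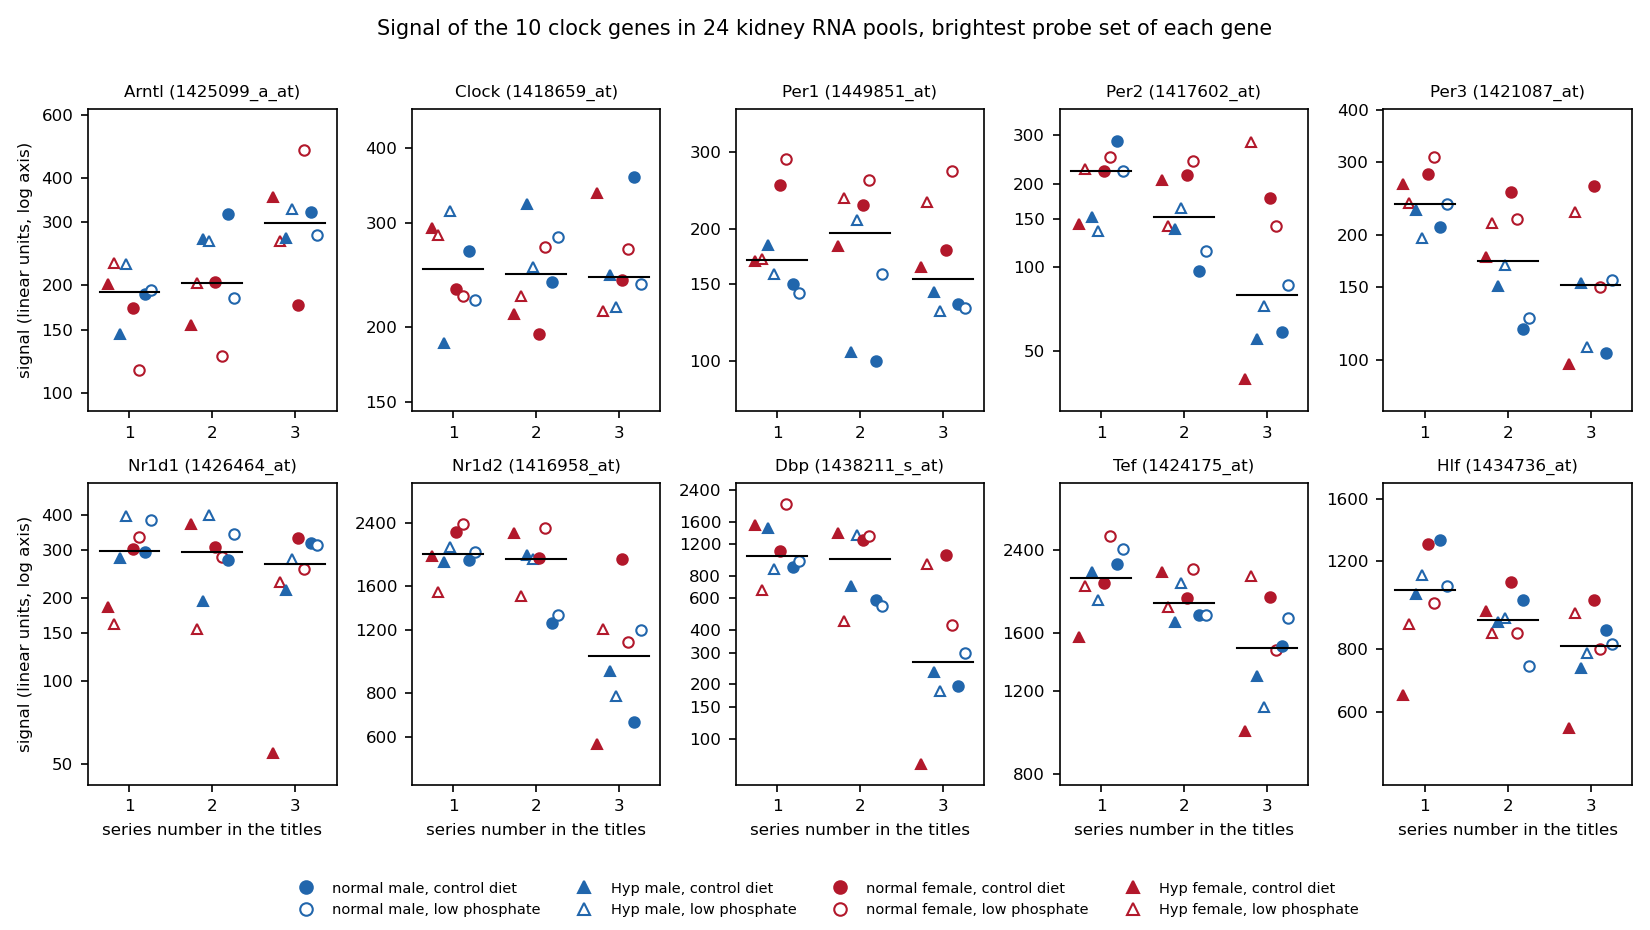
Signal (linear units on a log axis) of the brightest kept probe set of each of the 10 genes in the 24 pools, by the series number in the titles. Each point is 1 pool, coloured by sex, with circles for normal and triangles for Hyp and open symbols for the low phosphate diet; black lines are medians of 8 pools. For Dbp the median was 1032.6, 989.8 and 267.6 in series 1, 2 and 3, and for Arntl 192.2, 203.8 and 299.1.

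Among the activators, Arntl ran the opposite way to Dbp. Arntl 1425099_a_at had 116.0, 192.2 and 231.6 as lowest, median and highest signal in series 1, and 127.3, 203.8 and 317.1 in series 2. In series 3 it had 176.6, 299.1 and 477.1, and 7 of 8 pools exceeded every pool of series 1. The exception was the normal female control diet pool at 176.6, the pool with the highest Dbp signal of that series. The 430B probe set of Arntl, 1457740_at, did not show this, with medians of 158.8, 170.5 and 174.8, and correlated with the other at only r = 0.102. Clock, the partner of Arntl, had nearly level medians of 250.6, 245.4 and 242.7 for 1418659_at, and its 4 probe sets correlated among themselves at r = -0.165 to 0.279.

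Of the period repressors, Per2 and Per3 were low in series 3 and Per1 was not. Per2 1417602_at had medians of 222.2, 151.9 and 79.4 in series 1, 2 and 3, with 5 of 8 pools of series 3 below every pool of series 1. The 430B set of Per2, 1457350_at, had medians of 175.0, 172.8 and 96.2 with 6 such pools (r = 0.710 between the sets). Per3 1421087_at had medians of 237.5, 173.0 and 151.4, and both later-numbered series lay mostly below series 1, with 5 pools of series 2 and 6 of series 3 under its lowest value of 196.1. The 3 Per3 sets of the 430B chip had series 1 medians of 193.5, 95.8 and 153.5 and series 3 medians of 129.9, 93.0 and 88.4. Per1, which light and glucocorticoids are known to induce, had medians of 170.4, 196.4 and 153.5, and its ranges overlapped in all series.

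The REV-ERB genes differed from each other. Nr1d2 1416958_at had 1534.6, 1961.4 and 2397.3 as lowest, median and highest signal in series 1, and 1256.3, 1906.8 and 2333.2 in series 2. In series 3 the values were 572.4, 1016.4 and 1909.0, and only the normal female control diet pool reached the range of series 1. Its other set, 1416959_at (r = 0.907), had medians of 307.2, 298.4 and 195.0. Nr1d1 1426464_at had medians of 298.4, 295.2 and 267.2, and its single low value was 54.9 in the Hyp female control diet pool of series 3, where the next lowest of that series was 215.4.

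Tef and Hlf, the other D-box binding factors, had narrower ranges. Tef 1424175_at had medians of 2098.6, 1857.4 and 1486.2, with 5 pools of series 3 below every pool of series 1 and the lowest, 985.4, again in the Hyp female control diet pool. Tef 1450184_s_at and 1438033_at had medians of 640.8 and 180.0 in series 1 and of 443.6 and 106.6 in series 3. Hlf 1434736_at had medians of 1050.9, 916.0 and 810.1, and 1 pool of series 3 lay below series 1. Hlf 1434735_at had medians of 618.0, 521.3 and 462.6, and 4 pools of series 3 lay below series 1 and 1 above it.

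A test of the series numbers was made in the fit with 8 group means. Nr1d2 1416958_at was the single clock probe set of 23 that differed between the 3 series by the F test (adjusted p = 0.0353), while 0.157% of all kept probe sets did. At an unadjusted p under 0.05, 14 of 23 clock sets differed, or 60.9%, against 16.4% of all kept sets. For the pairwise difference between series 3 and series 1, a test chosen, like the other pairwise tests of series, after the values had been seen, 6 of 23 passed and all 6 were lower in series 3. Over all kept sets 0.949% passed and 0.717% passed and were lower. At an unadjusted p under 0.05 these shares were 65.2% of clock sets and 18.2% of all. In bulk tissue, fewer cells of a type and less RNA per cell cannot be told apart in any of these differences.

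The 6 were Dbp 1438211_s_at (-1.88 ± 0.42, a 3.67-fold lower level, adjusted p = 0.0421), Dbp 1418174_at (-1.63 ± 0.34, adjusted p = 0.0384), Nr1d2 1416958_at (-1.01 ± 0.17, adjusted p = 0.0141), Per2 1457350_at (-0.83 ± 0.19, adjusted p = 0.0463), Per3 1421087_at (-0.71 ± 0.13, adjusted p = 0.0228) and Tef 1450184_s_at (-0.62 ± 0.13, adjusted p = 0.0328). The Dbp sets held ranks 3 and 8 of 28026 in the lowest differences. Arntl 1425099_a_at had a difference of +0.72 ± 0.19 that missed the threshold (adjusted p = 0.0745), as did Per2 1417602_at at -1.09 ± 0.27 (adjusted p = 0.0603) and Hlf 1434736_at at -0.35 ± 0.10 (adjusted p = 0.0852). Nr1d1 had -0.32 ± 0.24, Per1 -0.14 ± 0.13 and the 4 Clock sets -0.05 to 0.19, with 95% intervals that include 0.

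The median difference of the 23 clock sets was -0.46 against -0.10 for all kept sets, and 19 of 23 were negative. Scaling each array to a common median moved the median of all sets from -0.10 to 0.03, and with it the share of calls that are higher in series 3 from 24.4% to 89.6%. With that scaling Dbp 1438211_s_at had -1.76 and Nr1d2 1416958_at -0.90. With quantile normalization that share was 66.7% and these differences were -1.78 and -0.96, where only 1 clock set passed. With no filter on dim sets none of the 6 passed. With 1 feature per gene 3 clock sets passed, the brightest sets of Dbp, Nr1d2 and Per3. The brightest sets of Per2 and Tef were not among the 6. Between series 2 and series 1, 0 of 23 passed, as for all kept sets (0.0%; 1653 had an unadjusted p under 0.05, 1 of them among the clock sets). Between series 3 and series 2, 0 of 23 passed against 0.0214% of all, with 11 clock sets at an unadjusted p under 0.05 and Nr1d2 1416958_at the lowest adjusted p at 0.0812 (-0.85 ± 0.17).

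**Figure D2:**
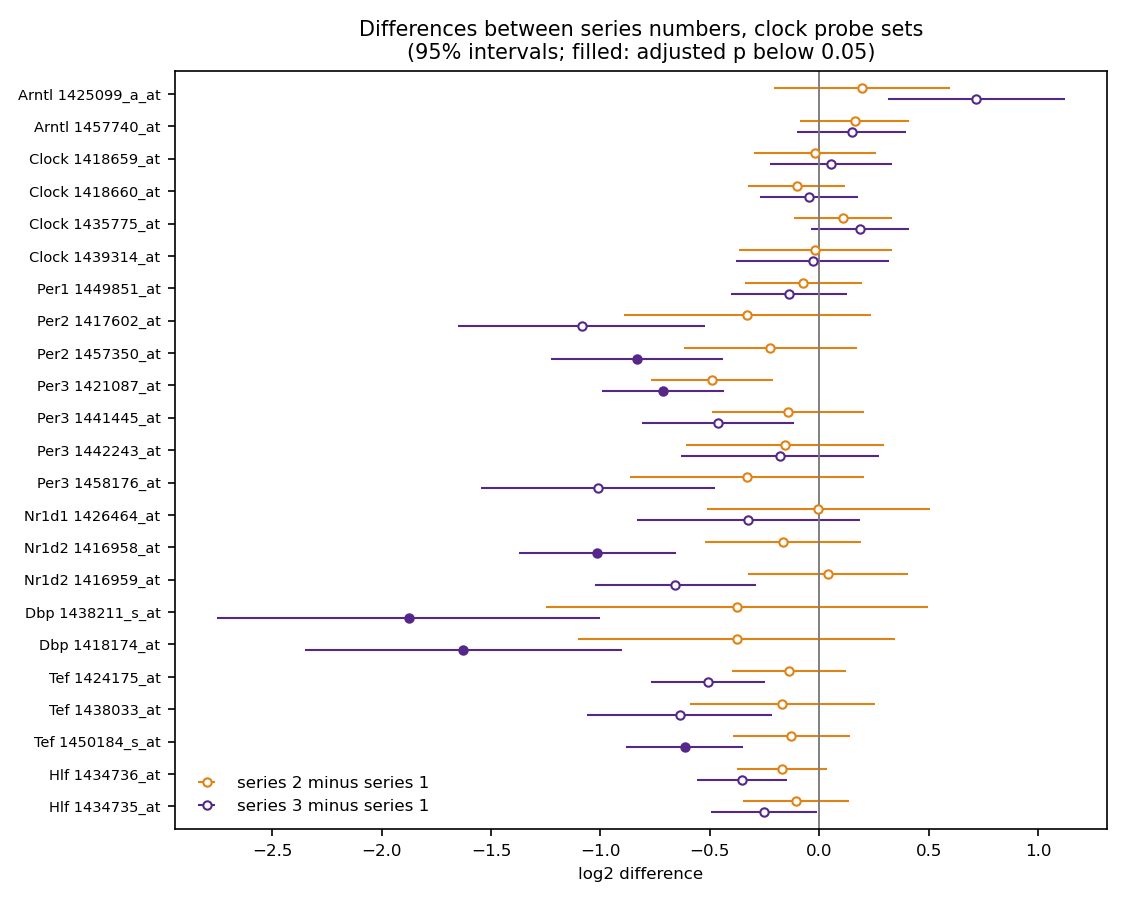
Difference in log2 signal of series 2 (orange) and series 3 (purple) from series 1 for the 23 kept clock probe sets, with 95% intervals; filled points have an adjusted p below 0.05. Dbp 1438211_s_at lay at -1.88 and Arntl 1425099_a_at at +0.72 for series 3, and no set passed for series 2.

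Single pools decided much of this count. Nr1d2 1416958_at passed without any 1 of the 24 pools and Per3 1421087_at in 20 of 24 such fits. The others passed in 13 (Tef), 11 (Dbp 1418174_at), 7 (Dbp 1438211_s_at) and 5 (Per2 1457350_at). The count of 6 fell to 1 without the Hyp female control or Hyp male low phosphate pool of series 3, or without the normal male control or normal male low phosphate pool of series 1. It was 2 without the Hyp female control, Hyp male low phosphate or normal female low phosphate pool of series 1, or the Hyp male control, normal female low phosphate, normal male control or normal male low phosphate pool of series 3. It was 3 without the Hyp female low phosphate or Hyp male control pool of series 1, and 10 without the Hyp female control pool of series 2. The F test's count of 1 became 0 without any 1 of 14 of the 24 pools, 2 without the normal female control pool of series 3 and 5 without the Hyp female low phosphate pool of series 3.

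Other measures were compared between the series beside these differences. The marker sums take in dim markers that were not kept. Of 7 adrenal markers, with 3 kept, the summed signal had medians of 632.5, 543.1 and 467.7 in series 1, 2 and 3. Its ranges of 383.2 to 728.7, 487.5 to 696.2 and 325.3 to 558.4 overlapped. Of 5 pancreas markers, with 2 kept, the medians were 489.6, 467.3 and 353.2, also with overlapping ranges. The fat marker sum (3 measured, 2 kept) had medians of 1830.0, 2009.1 and 1691.8, the red blood cell sum (3 measured, 2 kept) 659.2, 597.4 and 643.4, and the leukocyte sum (5 measured, 3 kept) 825.8, 856.6 and 762.2. The muscle sum (4 measured, 1 kept) had 240.8, 240.4 and 237.1. The liver sum (5 measured, 2 kept) had 10329, 8854 and 8554 and was carried by Ttr, at 698.5 to 30855 over the pools. The part of these tissues in the series differences was not tested.

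Neither genotype nor diet moved a clock gene past the threshold, with series number as a block or without it. For Hyp against normal, 0 of 23 clock sets passed, against 1.96% of all kept sets. At an unadjusted p under 0.05 there were 3, or 13.0%, against 11.5% of all. The lowest adjusted p was that of Tef 1450184_s_at, 0.211. The 12 Hyp pools had a lowest signal of 199.3, a median of 508.8 and a highest of 714.6 for it. The 12 normal pools had 433.3, 537.8 and 756.1, and the ranges overlap (-0.30 ± 0.10). For Nr1d1 the Hyp pools lay between 54.9 and 403.1 with a median of 222.8, the normal ones between 255.6 and 386.2 with a median of 310.2. Of the 12 Hyp pools, 7 lay below every normal pool and 2 above every one, and the difference was -0.51 ± 0.20 (95% interval -0.92 to -0.09, adjusted p = 0.290). Hlf 1434736_at differed by -0.20 ± 0.08 (adjusted p = 0.319).

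The genotype differences of the rest did not pass the threshold either. Dbp 1438211_s_at had -0.30 ± 0.34, with a 95% interval of -1.01 to 0.42, and Per2 1417602_at -0.31 ± 0.22. Nr1d2 1416958_at had -0.15 ± 0.14 and Tef 1424175_at -0.20 ± 0.10. Per1 had -0.10 ± 0.10, Per3 1421087_at -0.10 ± 0.11, Clock 1418659_at 0.02 ± 0.11 and Arntl 1425099_a_at 0.15 ± 0.16. In all, 18 of 23 differences were negative with a median of -0.10, against -0.004 for all kept sets. Without the Hyp female control pool of series 2 the count of genotype calls among the clock sets was 2, with Nr1d1 and Hlf 1434736_at past the threshold at adjusted p-values of 0.0173 and 0.0315. With any other single pool left out it was 0, and with array quality weights it was 1.

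For low phosphate against control diet, 0 of 23 clock sets passed, against 0.91% of all kept sets, and 2 (8.7%) had an unadjusted p under 0.05, against 10.6%. The lowest adjusted p was again that of Tef 1450184_s_at, 0.237, with 199.3, 507.0 and 756.1 in the 12 control diet pools and 411.9, 576.4 and 752.6 in the 12 low phosphate pools (+0.31 ± 0.10). Per1 differed by +0.25 ± 0.10 (95% interval 0.04 to 0.47, adjusted p = 0.370). Dbp 1438211_s_at differed by +0.08 ± 0.34, Nr1d2 1416958_at by +0.05 ± 0.14, Arntl 1425099_a_at by +0.02 ± 0.16 and Hlf 1434736_at by -0.05 ± 0.08. The median was 0.05 against 0.01 for all kept sets. For Dbp the 95% interval was wide, from -0.63 to 0.79.

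**Figure D3:**
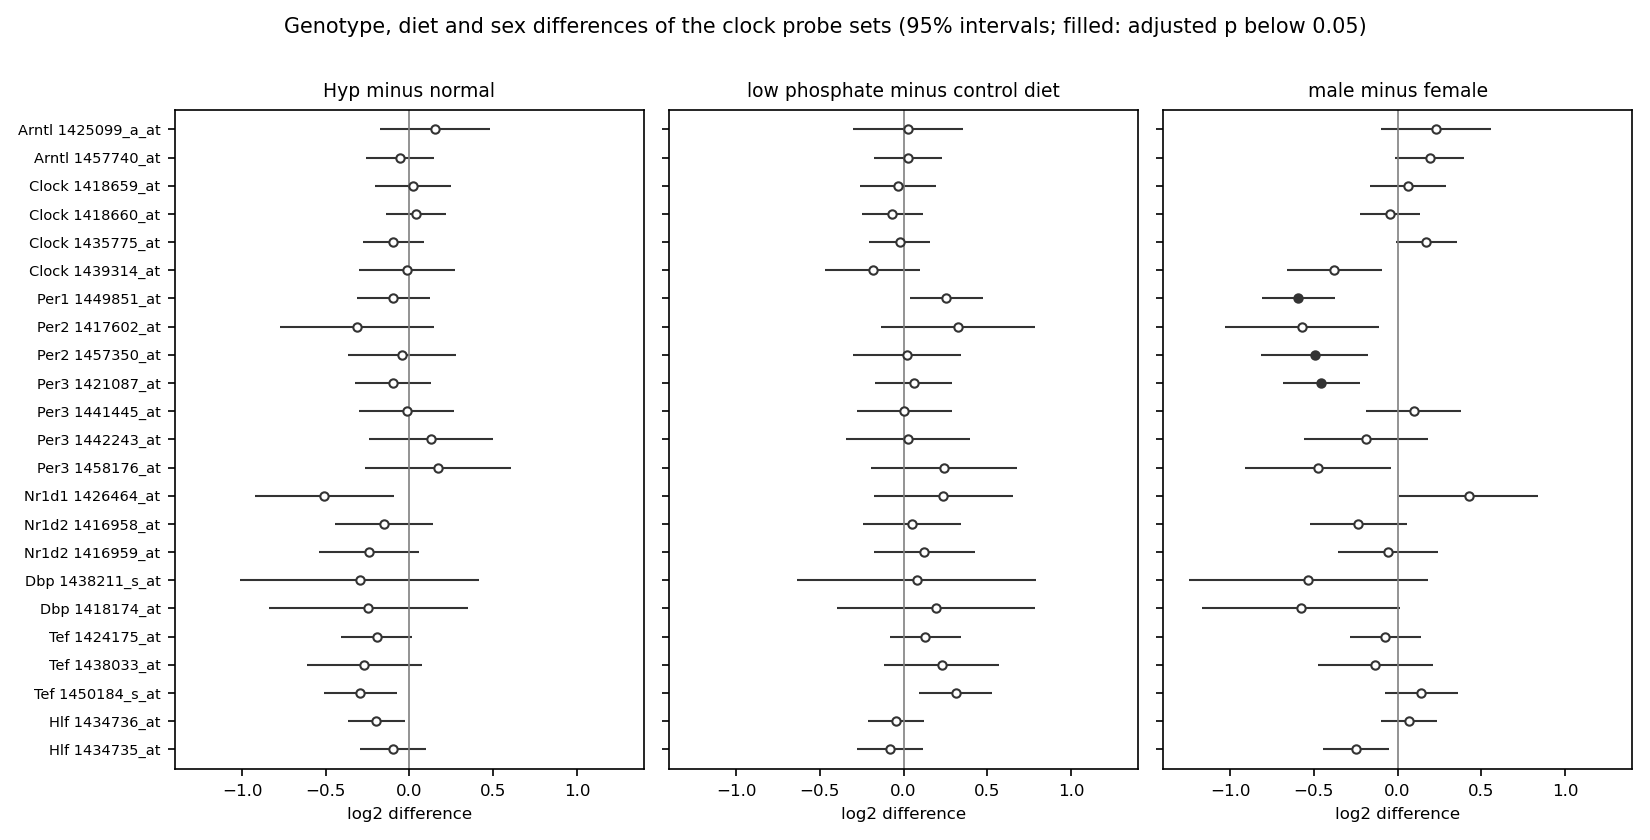
Log2 differences of the 23 kept clock probe sets for genotype, diet and sex, each 12 pools against 12 with series number as a block; bars are 95% intervals and filled points have an adjusted p below 0.05. All genotype and diet points are open, and the 3 filled points are the sex differences of Per1, Per2 1457350_at and Per3 1421087_at.

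Within single series numbers the genotype and diet differences of the brightest sets each rested on 4 pools against 4 and often differed in sign. The genotype difference of Dbp was -0.13, 0.04 and -0.80 (± 0.65 each) in series 1, 2 and 3, and its diet difference -0.24, -0.18 and 0.66. Per2 had a genotype difference of -0.60, 0.04 and -0.37 (± 0.36) and a diet difference of 0.07, 0.03 and 0.87. Nr1d1 had genotype differences of -0.44, -0.21 and -0.87 (± 0.37), the same sign in each series. Hlf had -0.36, -0.00 and -0.23 (± 0.11), and Tef -0.29, 0.02 and -0.32 (± 0.19). Per1 had diet differences of -0.02, 0.55 and 0.23 (± 0.17). No clock set differed in its genotype, diet or sex difference between the series (0 of 23 for each, also at an unadjusted p under 0.05). Among all kept sets the adjusted counts were 0 (0.0%), with 1260, 1272 and 1318 sets at an unadjusted p under 0.05.

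**Figure D4:**
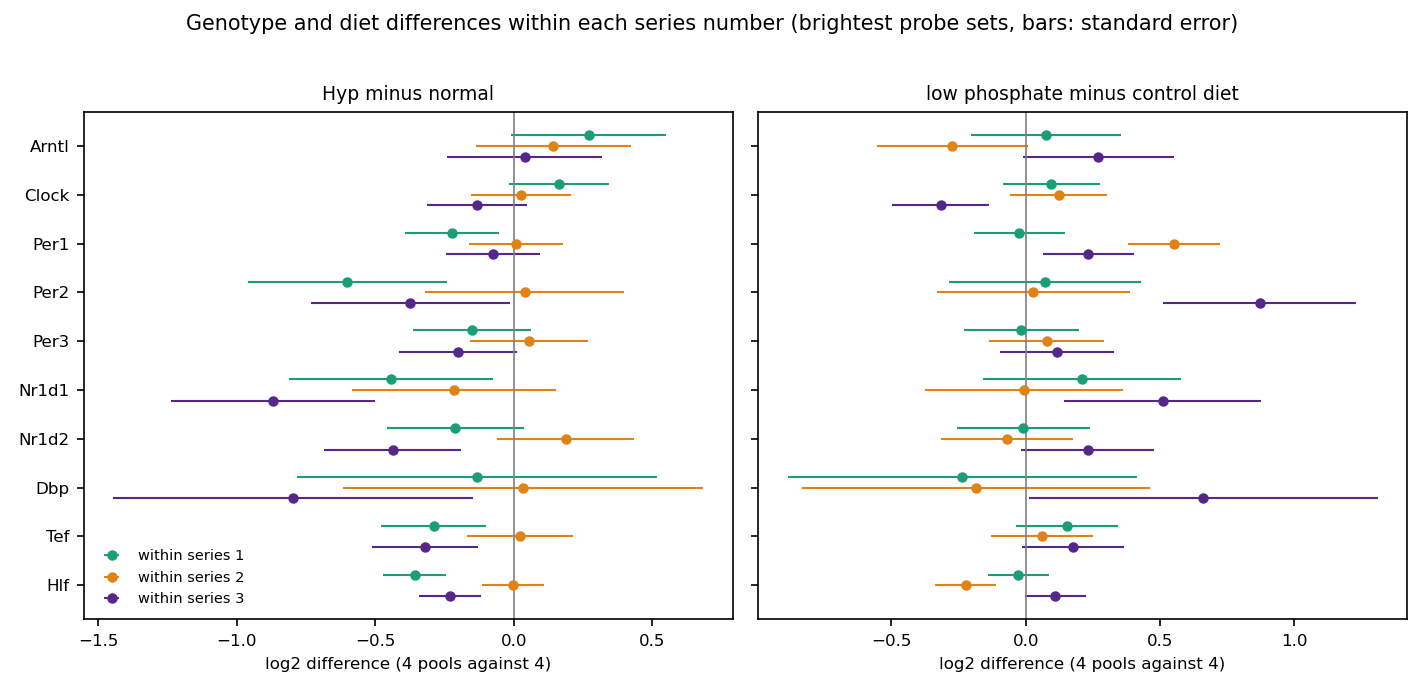
Genotype and diet differences (log2) of the brightest probe set of each gene within series 1, 2 and 3, 4 pools against 4; bars are standard errors. Dbp had genotype differences of -0.13, 0.04 and -0.80 and diet differences of -0.24, -0.18 and 0.66.

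Male kidneys had lower signals than female kidneys for Per1, for 1 of 2 kept Per2 sets and for 1 of 4 kept Per3 sets. Of 23 clock sets, these 3 passed for sex, against 16.2% of all kept sets that passed and 9.71% that passed and were lower in males. All 3 of 23 were lower in males, a share below the 16.2% for both directions and above the 9.71% for that direction. At an unadjusted p under 0.05 there were 8 clock sets, or 34.8%, against 28.3% of all. Whether the clock sets differ from that background was not tested. Per1 had 99.7, 142.9 and 209.7 (lowest, median, highest) in 12 male pools and 163.7, 229.4 and 289.2 in 12 female pools. Of the male pools, 10 lay below every female pool. The difference was -0.59 ± 0.10, a 1.51-fold lower level in males (adjusted p = 0.000482), with -0.44, -0.72 and -0.62 within series 1, 2 and 3.

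Per3 1421087_at had 104.1, 154.2 and 237.0 in males and 98.1, 232.3 and 307.9 in females (-0.45 ± 0.11, adjusted p = 0.00677). Per2 1457350_at had 56.7, 113.4 and 208.2 in males and 70.9, 179.4 and 193.1 in females (-0.50 ± 0.15, adjusted p = 0.0345), and the ranges overlap for both. The other kept Per2 set had -0.57 ± 0.22 (adjusted p = 0.0874). The 3 other Per3 sets had 0.10 ± 0.13, -0.19 ± 0.17 and -0.48 ± 0.21 and did not pass. Without series number as a block, the difference of Per1 alone passed (adjusted p = 0.000299), and Per3 1421087_at and Per2 1457350_at had 0.0783 and 0.153. Per1 and Per3 1421087_at passed without any 1 pool, and Per2 1457350_at in 10 of 24 such fits. Per3 1421087_at missed the threshold with array quality weights (adjusted p = 0.0513) and without series 2 (0.149). Per2 1457350_at missed it with a common median (0.0577), quantile normalization (0.0519), no filter (0.0634) and adjustment within each chip (0.0758), and without series 2 (0.271) or series 3 (0.246). Per1 passed under each of these settings. The count of 3 rose to 5 without the normal male control pool of series 1. Scaling to a common median moved the share of all sex calls that are higher in males from 40.2% to 66.1%, and quantile normalization to 48.7%; each left 2 clock sets called.

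The remaining sex differences did not pass. Dbp had -0.53 ± 0.34 and -0.58 ± 0.28 in its 2 sets, Nr1d1 +0.42 ± 0.20 (adjusted p = 0.166) and Arntl 1425099_a_at +0.23 ± 0.16. Summed markers of fat had medians of 1529.0 in male and 2038.6 in female pools, those of leukocytes 758.7 and 896.8, of red blood cells 600.8 and 697.8 and of pancreas 401.0 and 501.3. The adrenal sums were 535.3 and 537.2 and the kidney sums 99131 and 102203. The liver sums were 12916 and 7597. Their part in the sex differences was not tested.

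Interactions between the factors were not called for any clock set. Hlf 1434736_at had the lowest p for genotype by diet, with a low phosphate minus control difference that was 0.54 ± 0.16 more positive in Hyp than in normal mice (unadjusted p = 0.00345, adjusted p = 0.514). Its mean signals on control and low phosphate diet were 719.1 and 901.6 in Hyp females and 891.7 and 944.8 in Hyp males. In normal mice they were 1129.9 and 884.0 in females and 1066.2 and 876.3 in males, so that the diet differences had opposite signs in the 2 genotypes. Its Hyp female control pools were 647.0, 953.6 and 556.7 in series 1, 2 and 3, and its normal female control pools 1298.5, 1090.0 and 1001.2, without overlap. Those groups had the lowest and highest mean signals of all groups for Hlf 1434736_at, and a lack of overlap can arise from comparing extremes. For genotype by diet 0 of 23 passed against 0.0178% of all, for genotype by sex 0 against 0.0678%, and for diet by sex 0 against 0.00357%. In the genotype by sex comparison 17 of 23 values were positive with a median of 0.30, against 0.05 for all. There Nr1d2 1416958_at had 0.66 ± 0.28 (adjusted p = 0.608), Per1 0.52 ± 0.21 (adjusted p = 0.580) and Dbp 1438211_s_at 1.16 ± 0.68.

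For each gene's brightest set the 8 groups were ranked by mean signal. This gave 70 pairs of neighbours over 10 genes, and in 68 of them the ranges of 3 pools overlapped. Neighbours in a ranking are the groups closest in mean, so overlap is likely from that choice alone. The count therefore does not measure how well the order is resolved. Dbp ran from 559.3 ± 349.9 (SD, n = 3) in normal males on control diet to 1257.6 ± 796.4 in normal females on low phosphate, with overlapping ranges. Per1 ran from 128.2 ± 25.8 (SD) in normal males on control diet to 273.4 ± 15.3 in normal females on low phosphate, and its 4 lowest groups were the male ones. Per3 ran from 144.1 ± 57.0 in normal males to 265.3 ± 13.9 in normal females on control diet. Nr1d2 ran from 1268.8 ± 614.6 to 2030.1 ± 204.9 in the same groups as Per3. Nr1d1 ran from 182.6 ± 41.5 in Hyp females to 360.2 ± 70.6 in Hyp males, both on low phosphate.

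The other 5 genes were ranked in the same way. Hlf ran from 719.1 ± 208.0 (SD) in Hyp females to 1129.9 ± 152.6 in normal females on control diet. Per2 ran from 114.7 ± 52.1 in Hyp males on control diet to 216.6 ± 72.0 in Hyp females on low phosphate. Tef ran from 1568.2 ± 584.6 in Hyp females on control diet to 2077.8 ± 558.0 in normal females on low phosphate. Arntl (184.8 ± 17 to 276.0 ± 74.7) and Clock (222.3 ± 24.3 to 288.2 ± 62.0) both ran from normal females to normal males on control diet. The lowest and highest groups did not overlap for Per1, Per3, Nr1d1, Nr1d2 and Hlf. These groups were picked as the extremes of the same values, so a lack of overlap can arise from that choice alone. No share over all kept sets was computed, so these genes cannot be read against a background.

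Pools that were low in Dbp were low in several partners and high in Arntl. Over the 24 pools, with log2 signals of the brightest sets, Pearson's r with Dbp was 0.931 for Nr1d2 (permutation p = 1e-05, the smallest that these permutations can give) with Spearman's rho 0.821. It was 0.865 for Per2 (p = 1e-05; rho 0.711, p = 0.00017), 0.860 for Tef (p = 1e-05; rho 0.745, p = 0.00011) and 0.810 for Per3 (p = 2e-05; rho 0.768, p = 4e-05), all permutation tests. For Arntl it was -0.719 (permutation p = 0.00011), with rho -0.792 (permutation p = 3e-05). The p for the rho of Nr1d2 was also 1e-05 by permutation. These are 5 of 9 relations computed with Dbp. Their p-values are two-sided and not adjusted, and the pools share 3 series numbers. In all these permutation tests pools were permuted freely over groups and series, so the p-values also take in shifts shared within a series or group.

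Without the 2 pools farthest from the median of Dbp, the Hyp female control and Hyp male low phosphate pools of series 3, r was 0.887 for Nr1d2, 0.789 for Per2, 0.738 for Tef, 0.728 for Per3 and -0.683 for Arntl. Within series 1, 2 and 3, of 8 pools each, r was 0.633, 0.835 and 0.909 for Nr1d2 and -0.831, -0.387 and -0.518 for Arntl. For Per3 these were 0.652, 0.481 and 0.935. In series 1 the relation was not seen for Per2 (-0.159) or Tef (0.122), and it was 0.828 and 0.817 in series 2 and 0.939 and 0.905 in series 3. Within series 1, 2 and 3 Hlf had r of -0.323, 0.439 and 0.88, so the sign was opposite in series 1. Over the 24 pools Hlf had r = 0.593 (permutation p = 0.00229; rho 0.488, permutation p = 0.0166), and 0.371 without those 2 pools. Nr1d1 had 0.563 (permutation p = 0.00781; rho 0.367, permutation p = 0.0778), and 0.249 without them, with 0.132, 0.648 and 0.637 within series 1, 2 and 3. Per1 had 0.424 (permutation p = 0.0381; rho 0.521, permutation p = 0.0099) and Clock -0.411 (permutation p = 0.0458; rho -0.356, permutation p = 0.0894).

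**Figure D5:**
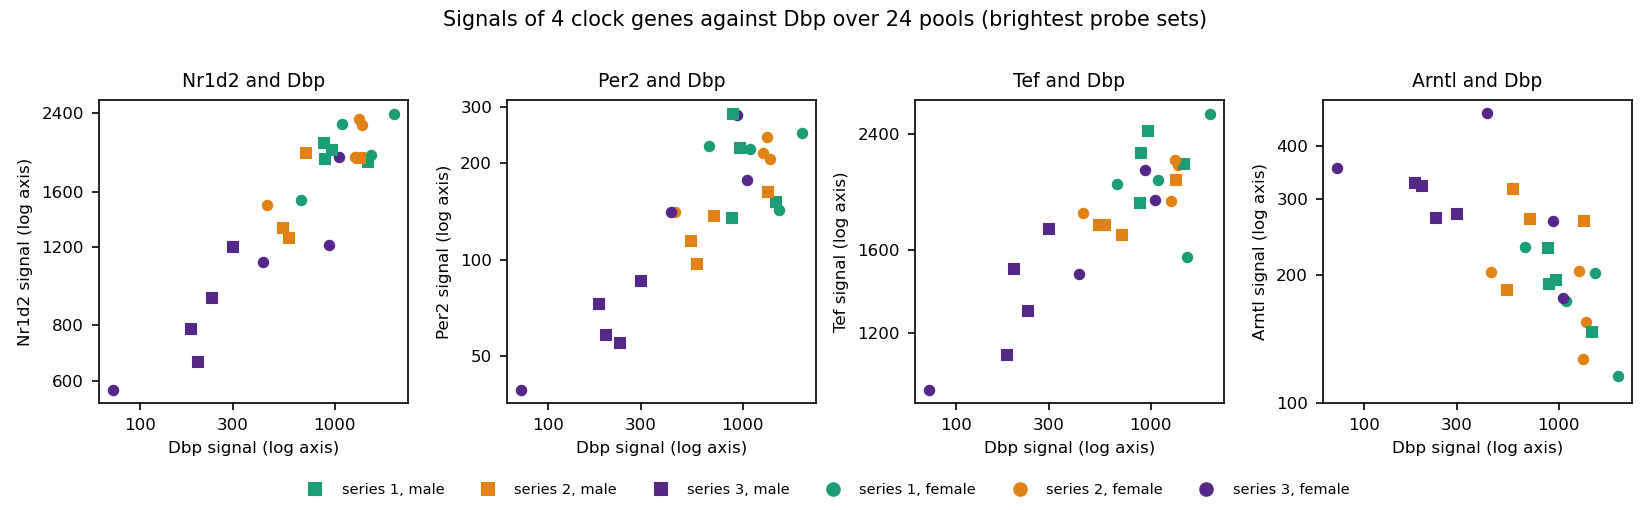
Signals of Nr1d2, Per2, Tef and Arntl against Dbp in the 24 pools (brightest probe sets, log axes), coloured by series number, with squares for male and circles for female pools. The 4 male pools of series 3 lie at Dbp signals of 183.0 to 299.9, and r over 24 pools was 0.931, 0.865, 0.860 and -0.719.

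Clock genes also led the list of genes most like Dbp. Among the brightest kept sets of the 7758 other named genes of the 430A chip, Nr1d2, Per2, Tef and Per3 held ranks 2, 3, 4 and 8 by Pearson's r with Dbp over the 24 pools, counting Dbp as the first. Arntl held rank 7 from the lowest. The 5 most similar genes that are no members were Stk38 (a protein kinase, r = 0.828), Lmo7 (0.823), Edrf1 (0.821), Zpr1 (a zinc finger protein, 0.803) and Tsr3 (0.793). For Arntl they were Slc16a1 (a monocarboxylate transporter, r = 0.853), Stx18 (a syntaxin, 0.698), Hnrnpc (an RNA-binding protein, 0.681), Yipf3 (0.681) and Ndrg1 (0.669). The most negative members for Arntl were Nr1d2 at -0.757, Tef at -0.720 and Dbp at -0.719. These r values describe the 24 pools and carry no test.

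The unexplained spread of the clock genes was taken as limma's moderated residual SD of log2 signal after groups and series. Moderation draws each SD toward a value shared by the chip. This SD ran from 0.195 for Hlf 1434736_at to 0.831 for Dbp 1438211_s_at. The median of all kept sets was 0.273. The Dbp sets stood at the 91.1 and 85.7 percentiles of all kept sets and Per2 1417602_at (0.536) at the 79.1. Nr1d1 (0.484) stood at the 76.4 and Nr1d2 1416958_at (0.340) at the 62.7, while Clock 1418659_at (0.265) and Per1 (0.253) were at the 47.9 and 44.8.

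Other genes of the loop were counted in the same fit. Of 15 further clock loop genes (among them Cry, Ror, Bhlhe and casein kinase genes), 7 had a kept set and 0 passed for genotype, diet, the F test of series or series 3 against series 1. Their median difference between series 3 and 1 was -0.06, with Ciart, a repressor of the loop, lowest at -1.37 (mean signals of 102.6, 95 and 46.7 in series 1, 2 and 3, adjusted p = 0.191). For sex, 1 was higher and 2 lower in males, where 16.2% of all kept sets passed and 9.71% passed and were lower. Of 8 clock output genes 6 were measured, and 0 passed for genotype, diet or series, while 3 were lower in males (9.71% of all kept sets). Their series 3 minus series 1 median was -0.28, and Wee1, a cell cycle kinase, had the lowest value at -0.67 (adjusted p = 0.0595). Ciart and Wee1 were singled out after their values were seen.

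Genes that respond to hormones, temperature, feeding and handling were also counted. All 10 glucocorticoid-induced genes and 9 of 10 heat shock and temperature genes were measured, and 0 passed for genotype, diet or series in either list. Their medians for series 3 minus series 1 were -0.20 and -0.12, against -0.10 for all kept sets. Of 7 fasting genes 6 were measured. Over all kept sets 1.96% passed for genotype, 0.91% for diet and 0.949% for series 3 against series 1. G6pc, which releases glucose in gluconeogenesis, was higher in Hyp (+0.31, adjusted p = 0.0138) and in series 3 against series 1 (+0.36, adjusted p = 0.0394). On the low phosphate diet Angptl4, an inhibitor of lipoprotein lipase, was higher (+0.78, adjusted p = 0.00669), and Pck1, a gluconeogenic enzyme, was lower (-0.74, adjusted p = 4.9e-05). Of 11 immediate early genes 8 were measured, and Ier3 (+0.78, adjusted p = 1e-05) and Ier2 (+0.33, adjusted p = 0.0433) were higher in Hyp (1.96% of all kept sets passed for genotype), with 0 called for diet or series. For sex, against 16.2% of all kept sets, 1 glucocorticoid-induced gene was higher and 3 were lower in males, and 2 heat shock genes were higher and 2 lower. Among fasting genes 1 was higher and 2 lower in males, and 5 of the 8 immediate early genes were lower.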

How the data were processed

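Signals are on a linear intensity scale. Per the labels' protocols, whole-kidney TRIzol RNA gave biotin-labelled cRNA that was hybridised to Affymetrix MOE 430A and 430B chips, and the authors' deposited intensity values were made with GCOS 1.2, per the submitters' processing notes; their scaling is not given in the sources used here. Signals below 1 were set to 1 and taken as log2, with no further normalization. On each chip, probe sets were kept, controls left out, where 3 or more of the 24 arrays gave a signal over their own median. Each chip was fitted with limma 3.58.1 (R 4.3.3; lmFit and eBayes) to 8 group means with series number as a block, and p-values were adjusted by Benjamini-Hochberg over the 28026 probe sets kept on both chips. The fit was tested on simulated data whose noise was independent between pools and probe sets. Shifts shared by many probe sets of a pool were therefore not covered by it. Correlations were tested with 100000 random permutations in numpy 2.4.6. Named genes are the 10 members, every probe set of each, the 5 genes most like Dbp and like Arntl on their chip by Pearson's r, and up to 4 genes of each other list past the threshold for genotype, diet or series; a gene's brightest kept set stands for it. Of all probe sets 35041 had 1 symbol, 936 several and 9160 none. Members and lists were chosen with earlier results of these data known. The number of arrays limits the precision. Alternatives tried are in the closing section.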

Additional observations from a re-analysis of the deposited data

Results flagged for a closer look

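Each kept clock probe set was examined within each series number for 1 pool far from the other 7, as the gap to the nearest pool over the range of the 8 log2 signals, against Dixon's critical value for 8 values. Of 69 such sets of 8 pools, 6 passed, each through a low pool. The nominal rate of about 5% assumes 8 values from 1 normal distribution. Here the 8 pools of a series come from 8 different groups. The share over all kept sets was not computed, so the count cannot be read against a background.

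Nr1d1 1426464_at in series 3 had a ratio of 0.759, with 54.9 in the Hyp female control pool and 215.4 in the next. Tef 1438033_at in series 1 had 0.711, with 83.6 in the Hyp female control pool and 173.3 in the next. Per2 1457350_at in series 1 had 0.557, with 123.9 in the Hyp male low phosphate pool and 165.4 in the next. Per3 was involved through its 430B sets. Per3 1458176_at in series 3 had 0.619, with 18.0 in the normal male control pool and 60.9 in the next. Per3 1442243_at in series 2 had 0.604, with 35.7 in the normal male low phosphate pool and 76.6 in the next. Per3 1441445_at in series 1 had 0.532, with 108.0 in the normal female control pool and 170.8 in the next.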

How the results depend on the processing

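The settings tried were 1 feature per gene, adjustment within each chip, array quality weights, a common median, quantile normalization, no filter, a pseudocount of 50, no replicate block, leaving out a series and leaving out each pool. Over all kept sets, the calls below moved by more than 1.5 times from 549 for genotype, 255 for diet, 4551 for sex, 5, 19 and 1 for genotype by diet, genotype by sex and diet by sex, 44 for the F test of series and 266 for series 3 against 1. The cause was not tested, except that leaving out pools leaves fewer samples and no filter adds dim sets.

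Without series 1, 2 and 3 the calls were 153, 151 and 167 for genotype, 39, 41 and 40 for diet, 2387, 2374 and 2199 for sex and 8, 7 and 2 for genotype by sex. Genotype by diet had 2 without series 1, and diet by sex 0 without series 1 or 2. Without series 2 the sex calls among clock sets were 1. With no filter, diet had 143, genotype by diet 3, genotype by sex 12, the F test 4 and series 3 against 1 26, with 0 clock sets in both series tests. With 1 feature per gene, genotype by diet had 3, diet by sex 0, the F test 16 and series 3 against 1 119 (3 clock sets). With quality weights, genotype by sex had 31, diet by sex 3, the F test 223 (5 clock sets), series 3 against 1 591 (12 clock sets) and genotype 1 clock set. A common median gave 0 for diet by sex, 234 for the F test and 482 for series 3 against 1. Quantile normalization gave 9 (0 clock sets) and 84 (1 clock set). Adjustment within each chip gave 165 (4 clock sets) and 461. The pseudocount gave 2 for diet by sex, 90 for the F test and 2 clock sets in it.

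Pools with the same series number correlated at -0.159 to 0.256 in their deviations from group means (84 pairs, median 0.074) and pools with different numbers at -0.272 to 0.260 (168 pairs, median -0.029). The median of 0.074 for the same number was thus low but above the -0.029 for different numbers, and the ranges overlapped. Whether the numbers mark matched pools cannot be told from these values. Series number was kept as a block in the tests reported. Without the replicate block the calls were 456 for genotype, 186 for diet, 4109 for sex, 4, 14 and 0 for the interactions, and 1 clock set for sex.

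Leaving out 1 pool gave 433 to 564 calls for genotype (0 to 2 clock sets), 170 to 261 for diet, 4014 to 4728 for sex (2 to 5), 4 to 8 for genotype by diet, 12 to 29 for genotype by sex and 0 to 2 for diet by sex. It gave 1 to 69 for the F test of series (0 to 5 clock sets), 50 to 319 for series 3 against 1 (1 to 10) and 0 to 1 for diet by series.

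Some small differences of single genes changed sign (log2). For genotype these were Clock (-0.0537 without series 1, -0.133 within series 3) and, within series 2, Dbp (0.0347), Nr1d2 (0.188), Per1 (0.0076), Per2 (0.0401), Per3 (0.0554) and Tef (0.0233). For diet these were Arntl (-0.0011 without series 1, -0.0983 without series 3, -0.273 within series 2) and Clock (0.109 without series 3, 0.0957 and 0.123 within series 1 and 2). Dbp had -0.211 without series 3 and -0.237 and -0.185 within series 1 and 2, Nr1d2 had -0.039, -0.0091 and -0.0689, and Hlf had 0.0423 without series 2 and 0.111 within series 3. Nr1d1 had -0.0061 within series 2, and Per1 and Per3 had -0.0226 and -0.0159 within series 1. With 1 pool left out, diet ran from -0.104 to 0.0935 for Arntl, -0.0861 to 0.0276 for Clock, -0.173 to 0.224 for Dbp, -0.0872 to 0.0169 for Hlf, -0.0381 to 0.128 for Nr1d2 and -0.0041 to 0.107 for Per3, and genotype from -0.041 to 0.0727 for Clock. Of the values of named members under alternatives, 893 kept their direction and side of the threshold, 101 lost the threshold, 2 gained it and 51 changed sign. Only the 6 series and 3 sex differences called in the main fit could lose the threshold, and all 101 losses fell among them. The genotype and diet differences were not called in the main fit, so they had no threshold to lose.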
